A study of Mus musculus with 9 samples.

Results

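The mitochondrial ribosomal protein genes were taken as every gene whose symbol is Mrpl or Mrps followed by a number and at most 1 letter, with the highest row kept for a symbol. The rule found 78 genes of the 21356 named symbols in the table, in 79 rows, since Mrps23 had 2 rows with equal values. Nuclear genes encode these proteins, which are made in the cytosol, imported into mitochondria and assembled with mitochondrially encoded rRNA into the large (Mrpl) and small (Mrps) subunits of the mitoribosome. The mitoribosome translates the few proteins that the mitochondrial genome encodes, all of them subunits of the oxidative phosphorylation complexes. Some of its proteins have bacterial homologs, and others are found only in mitochondria. Names and places do not always match: Mrps30 and Mrps18a sit in the large subunit, and Mrps36, which the rule also takes, is a component of the 2-oxoglutarate dehydrogenase complex rather than a ribosomal protein.

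Polyadenylated RNA of dissected midbrain from C57BL/6 mouse fetuses at E13.5 was sequenced in 9 libraries, 3 for each of 3 genotypes. The floxed control (Gpr161f/f, no Cre) had 2 conditional alleles and no recombinase. The Cre control (Gpr161f/+ with Wnt1-Cre) had 1 conditional and 1 wild-type allele, and the cKO had 2 conditional alleles with Wnt1-Cre (written Gpt161f/f in the sample titles). Wnt1-Cre recombines in the Wnt1 lineage, which includes dorsal midbrain neuroectoderm and cranial neural crest, so a dissected midbrain also holds cells that keep the gene. The comparison with the floxed control thus differs in Cre and in deletion, and the comparison with the Cre control differs in the number of conditional alleles. Gpr161 encodes a G protein-coupled receptor of the primary cilium that restrains Sonic hedgehog signaling, and the question here was how the mitoribosomal genes stood in midbrain of the cKO genotype. No label says whether a library came from 1 fetus or from several, so p-values measure the spread between these libraries, which may be technical.

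Gpr161 itself had log2 values of 11.80, 11.74 and 11.78 for floxed control, 11.77, 11.91 and 11.96 for Cre control and 11.74, 11.95 and 11.94 for cKO. The cKO did not stand below either control (limma adjusted p = 0.22 and 0.998). The part of the gene that recombination removes is not given in the sources used here, and a value over the whole gene need not fall when a part is lost, so this gene did not check the genotypes. The group names below are therefore those of the labels. The midbrain genes En1, En2, Otx2, Pax7, Lmx1a and Lmx1b all passed the filter on low values. In the mitoribosomal genes 1 library stood apart from its group: Cre control replicate 1 lay with the cKO, and the results that rest on it are given with and without it. Other libraries stood apart in the erythroid and mesenchyme markers, as given with those lists.

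All 78 genes passed the filter of at least 1 cpm in at least 3 libraries, as did 14033 genes in all. Their mean log2 values over the 9 libraries ran from 7.73 to 11.01 with a median of 9.99, where 1 cpm corresponded to 4.73 to 4.78 and the median of the genes tested was 9.74. For these genes most libraries lay close to the others of their genotype. The median SD within a genotype over the 78 genes was 0.040 on the log2 scale, against 0.061 for the genes tested. That median does not show Cre control replicate 1, which lay apart from its group. Its median deviation from each gene's mean over the 9 libraries was 0.084, against -0.053 and -0.044 for replicates 2 and 3. The transcripts were short, with a median length of 1224.5 bases against 2812 for the genes tested, and their median GC content differed by less than 1 percentage point from that of the genes tested. The genes lay on 17 chromosomes of GRCm38, with 11 on chromosome 11, 8 on chromosome 17 and 7 on chromosome 6.

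Levels of different genes can be set side by side only per transcript length, as the log2 value minus the log2 of the length in kilobases. On that scale the lowest were Mrpl35 at 7.52 and Mrpl1 at 7.54, both large subunit proteins with bacterial homologs. The highest were Mrps21 at 11.61, a small subunit protein, and Mrpl20 at 11.49, which binds large subunit rRNA. Mrpl35 and Mrpl1 have transcripts of 3721 and 3431 bases, and Mrps21 and Mrpl20 of 446.5 and 494 bases.

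The promoters were examined because nuclear respiratory factor 1 (NRF1) and the ETS family factor GABP are known to bind near the starts of many nuclear genes for mitochondrial proteins. RefSeq promoter windows (GRCm38.p6, 250 bases before to 50 after the start) were found for 69 of the 78 genes. Each motif was searched on both strands. The NRF1 letters GCGCANGCG were in 23.2% of these genes, in 14.5% of the 11026 genes tested that had a window and in 7.03% of all 27025 genes with a window. The ETS letters CCGGAAG were in 37.7%, 18.5% and 9.93% in the same order. 36 of the 69 genes (52.2%) had at least 1 of these 2 motifs, against 29.8% of the genes tested. The YY1 letters AAGATGG were in 18.8% of the mitoribosomal genes and 7.80% of the genes tested. The E-box CACGTG was in 7.25% and 11.3%, and the CCAAT box, searched as CCAAT, in 39.1% and 42.8%. 12 of the 69 genes held none of the 5 motifs. A match describes the letters of the window and does not show a bound site. 4 stretches of 80 bases before the start show how these motifs lie. They were chosen after the matches were seen, to give each motif alone and both together, and each ends before the first annotated exon. Capitals mark NRF1 or ETS letters on either strand, and each sequence is on the plus strand, 5′ to 3′.
Mrpl12, NRF1, chr11:120484533-120484612: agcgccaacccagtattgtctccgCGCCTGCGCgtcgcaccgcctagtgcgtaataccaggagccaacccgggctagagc
Mrpl45, NRF1, chr11:97315636-97315715: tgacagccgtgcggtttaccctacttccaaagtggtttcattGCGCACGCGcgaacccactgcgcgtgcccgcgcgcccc
Mrps27, ETS, chr13:99344706-99344785: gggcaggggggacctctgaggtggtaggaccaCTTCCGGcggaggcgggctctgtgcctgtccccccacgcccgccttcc
Mrpl22, ETS and NRF1, chr11:58171581-58171660: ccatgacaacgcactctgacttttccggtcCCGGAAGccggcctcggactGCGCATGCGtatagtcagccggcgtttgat

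**Figure D1:**
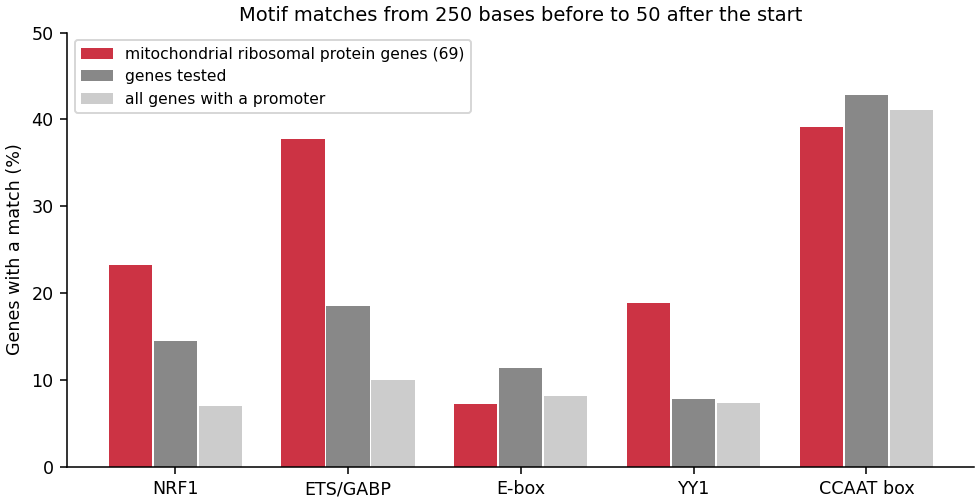
Share of genes (y axis, percent) whose promoter window, from 250 bases before to 50 after the RefSeq start, holds each motif (x axis), for the 69 mitochondrial ribosomal protein genes with a window (red), the genes tested (dark grey) and all genes with a window (light grey). The red bar is the tallest of its group for NRF1, ETS/GABP and YY1, and the lowest for the E-box and the CCAAT box.

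The first comparison, of cKO with floxed control, asked how midbrain labelled as Gpr161 cKO differed from midbrain without Cre. The mitoribosomal genes were slightly higher in the cKO. 34 of the 78 genes rose (43.6%, limma adjusted p under 0.05 over all genes tested), where 19.5% of the genes tested rose. None fell at an adjusted p under 0.05 by limma, where 18.8% of the genes tested fell. None fell at an unadjusted p under 0.05 either, against 23% of the genes tested. 76 of the 78 fold changes were above 0, with a median of 0.13 on the log2 scale against 0.011 for the genes tested. In 62 genes (79.5%) every cKO library was above every floxed control library, which held for 29.9% of the genes tested. The differences were small: the range was -0.018 (Mrpl48) to 0.30 (Mrpl54), the median SE was 0.052, and none of the 78 passed a fold change over 1.5, which 2.92% of the genes tested did.

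How far this share stood above that of all genes depended on the length and GC content of the transcripts. Among the genes tested, the fold change was higher for shorter transcripts (Pearson r = -0.20, Spearman rho = -0.23 across 13905 genes in the same 6 libraries, given as a description). Once each library was corrected for length and GC content, 15 of the 78 genes rose (19.2%) against 18.8% of the genes tested, and the median fold change was 0.068 against 0.0025. After that correction the share of the mitoribosomal genes that rose was near that of all genes. Among the 78 genes themselves, the fold change showed little relation to length (r = 0.059, rho = 0.069). Whether the correction removed a technical difference or one that goes with short transcripts in these cells was not tested.

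Leaving out single libraries also moved the count, from 10 genes without cKO replicate 1 (background 13.1%) to 51 without Cre control replicate 1 (background 24.1%). It was 13, 17 and 15 without floxed control replicates 1, 2 and 3, and 17 and 20 without cKO replicates 2 and 3. In the 6 fits that lacked a cKO or floxed control library, 12.8% to 25.6% of the 78 genes rose, where 13.1% to 17.6% of the genes tested did. At an adjusted p under 0.01 with all 9 libraries 8 genes rose, and the background was then 10.6%. The median fold change moved little, between 0.13 and 0.14. In each of those 9 fits 10 genes were higher: Mrpl10, Mrpl17, Mrpl18, Mrpl28, Mrpl36, Mrpl44, Mrpl54, Mrps25, Mrps27 and Mrps36. Mrpl17 and Mrpl18 lie outside the rule for named genes and are listed here because of this result. The share of all genes tested that was higher in all 9 fits is not given here. The 10 genes thus have no background to be set against.

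**Figure D2:**
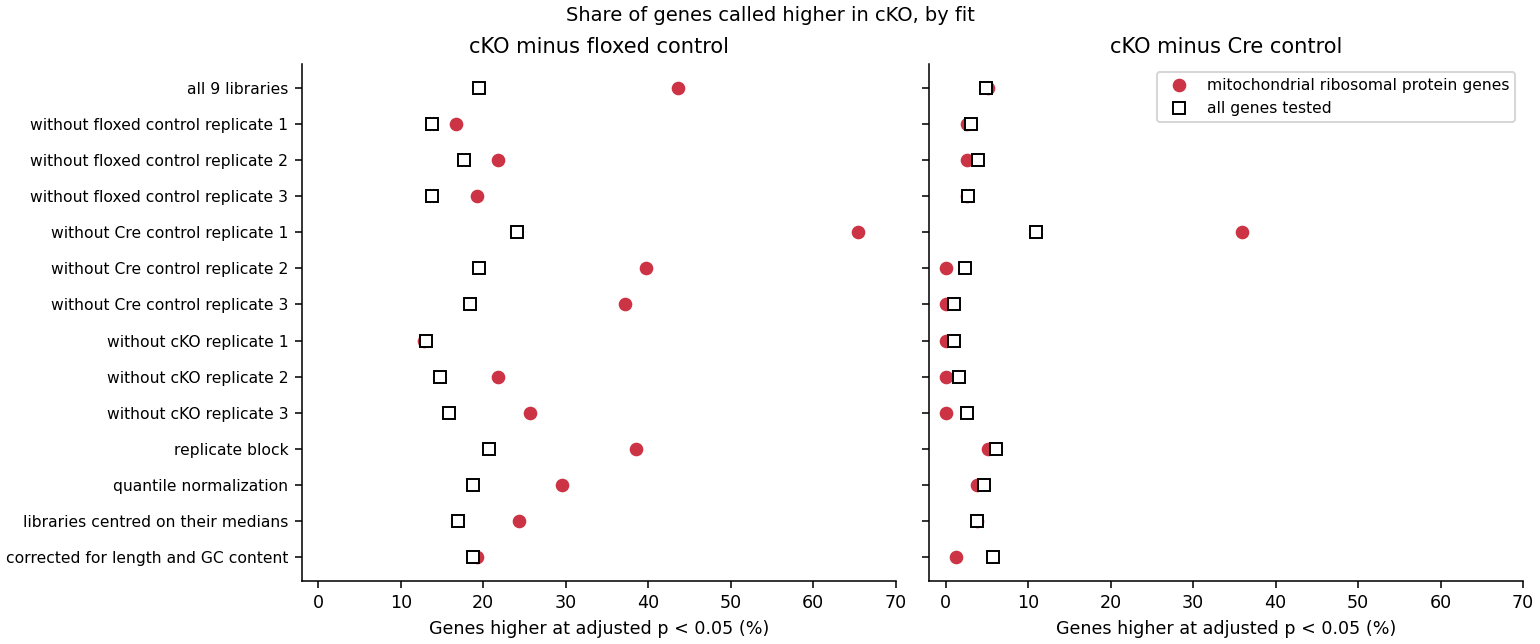
Share of genes higher in the cKO at an adjusted p under 0.05 (x axis, percent) in each fit (y axis), for the 78 mitochondrial ribosomal protein genes (filled circles) and all genes tested (open squares), against the floxed control (left) and the Cre control (right). The gap between circles and squares is 43.6% against 19.5% with all 9 libraries on the left and closes after correction for length and GC content (19.2% against 18.8%). On the right the circle stands clear of the square only without Cre control replicate 1, at 35.9% against 10.9%.

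By place in the ribosome, genes of both subunits rose. Of the 51 large subunit genes 23 rose (45.1%), with a median fold change of 0.13. Of the 26 small subunit genes 10 rose (38.5%), with a median of 0.14. The share of all genes tested was 19.5%. The large subunit genes with bacterial homologs gave 14 of 30 (median 0.13) and those found only in mitochondria 9 of 21 (0.13). In the small subunit the counts were 5 of 16 (0.12) and 5 of 10 (0.15). The remaining gene that rose was Mrps36. After correction for length and GC content 12 of the 51 large and 3 of the 26 small subunit genes rose. The share of all genes tested was then 18.8%.

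**Figure D3:**
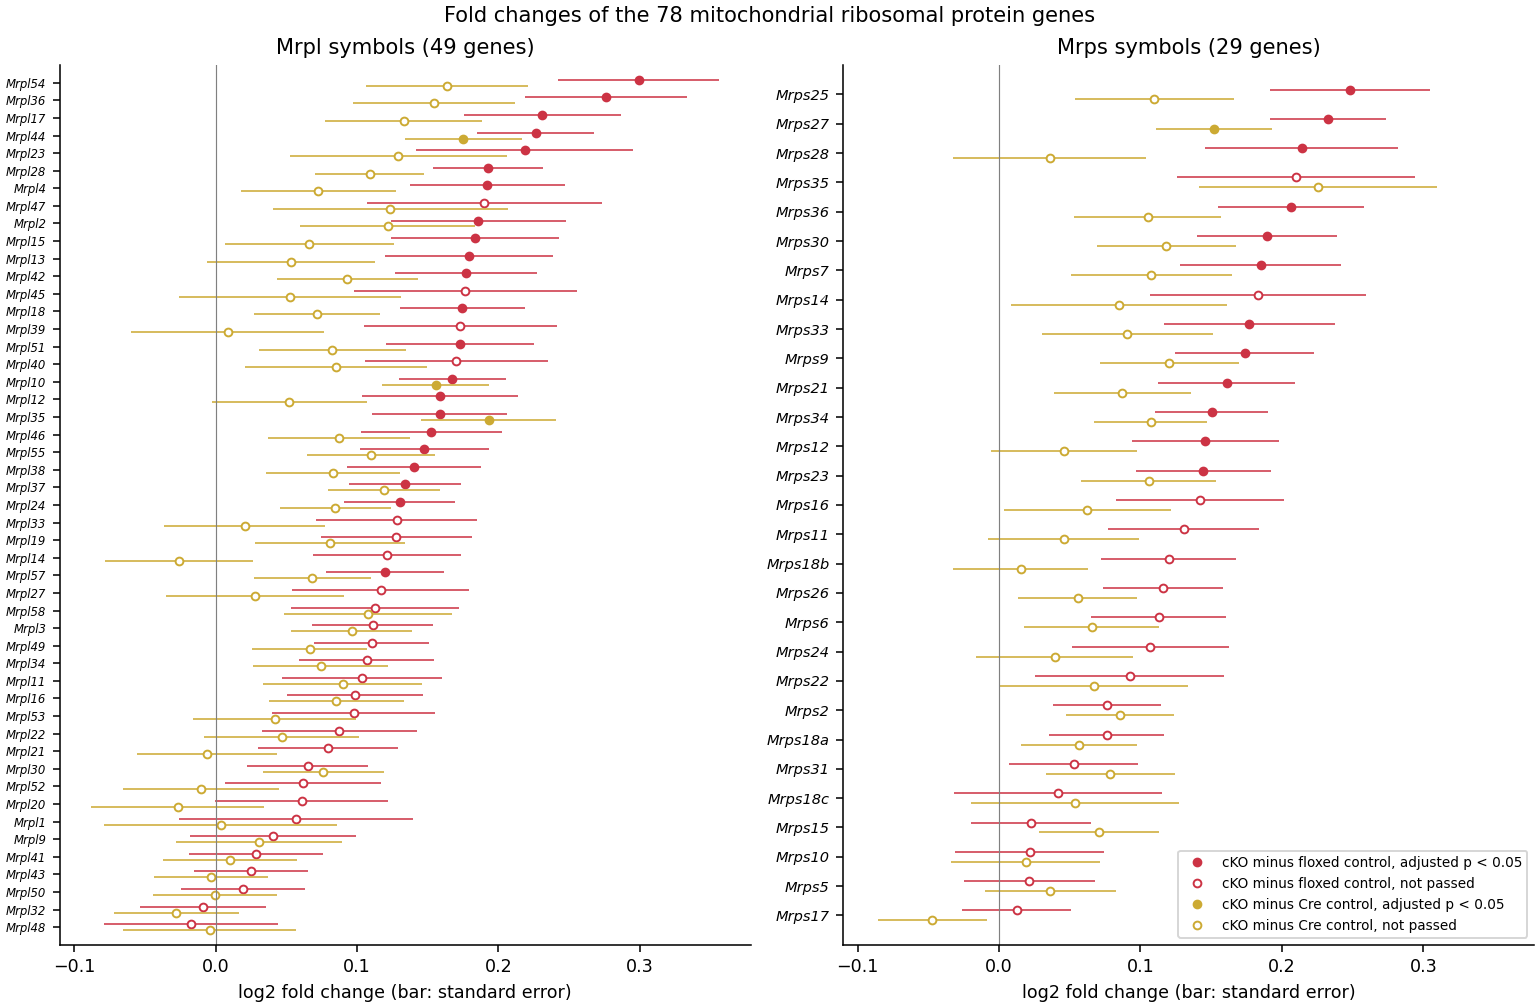
Log2 fold changes (x axis) of the 49 genes with Mrpl symbols (left) and the 29 with Mrps symbols (right), for cKO minus floxed control (red) and cKO minus Cre control (yellow). Bars are standard errors and filled points passed an adjusted p under 0.05 by limma. Most red points lie between 0 and 0.3, and most yellow points lie nearer to 0 than the red point of the same gene, with Mrpl35 and Mrps35 among the exceptions.

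Mrps27, a small subunit protein with pentatricopeptide repeats (chromosome 13, 99344786 to 99415562, plus strand), had the smallest adjusted p of the 78. Its log2 values were 9.62, 9.64 and 9.67 for floxed control, 9.74, 9.71 and 9.72 for Cre control and 9.91, 9.83 and 9.88 for cKO. The groups did not overlap and stood in that order. The fold change was 0.23 against the floxed control (SE 0.041, limma adjusted p = 0.0023), a level 17.5% higher, and 0.15 against the Cre control (limma adjusted p = 0.046). The first call held in every fit run, with adjusted p from 0.0013 to 0.012, and the latter did not (0.028 to 0.16).

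Mrpl44, a large subunit protein with a fold like that of RNase III (chromosome 1, 79776018 to 79781445, plus strand), had log2 values of 9.37, 9.35 and 9.41 for floxed control, 9.42, 9.42 and 9.45 for Cre control and 9.63, 9.60 and 9.58 for cKO. All 3 cKO libraries were above the 6 controls, and the 2 control groups were close. It rose by 0.23 (SE 0.041, limma adjusted p = 0.0027) against the floxed control and by 0.17 (limma adjusted p = 0.032, 0.022 to 0.12 over the fits run) against the Cre control.

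Mrpl10, at the base of the stalk of the large subunit (chromosome 11, 97041560 to 97049213, plus strand), and Mrpl35, a large subunit protein with bacterial homologs (chromosome 6, 71812997 to 71826969, minus strand), complete the genes that rose against both controls. Mrpl10 had 10.06, 10.01 and 10.03 for floxed control, 10.03, 10.06 and 10.04 for Cre control and 10.20, 10.17 and 10.23 for cKO. Mrpl35 had 9.31, 9.37 and 9.45 for floxed control, 9.35, 9.34 and 9.33 for Cre control and 9.56, 9.52 and 9.51 for cKO. In both genes the 2 control groups overlapped and the cKO lay above them. Mrpl10 rose by 0.17 against the floxed control (SE 0.038, limma adjusted p = 0.0070) and by 0.16 against the Cre control (limma adjusted p = 0.035). Mrpl35 rose by 0.16 against the floxed control (SE 0.048, limma adjusted p = 0.025) and by 0.19 against the Cre control (limma adjusted p = 0.036). None of these 4 calls held in every fit run, with adjusted p of up to 0.12, 0.11, 0.096 and 0.13 in that order.

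The largest difference of the 78 was in Mrpl54, a large subunit protein found only in mitochondria (chromosome 10, 81264713 to 81266934, minus strand). Its values were 9.62, 9.64 and 9.66 for floxed control, 9.91, 9.71 and 9.71 for Cre control and 9.95, 9.95 and 9.92 for cKO. Cre control replicate 1 lay above the other libraries of its group and just under the cKO. Mrpl54 was 23.0% higher in cKO than in floxed control (log2 fold change 0.30, SE 0.057, limma adjusted p = 0.0033), and its fold change of 0.16 against the Cre control did not pass (limma adjusted p = 0.094).

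Mrpl36, a very small large subunit protein with bacterial homologs (chromosome 13, 73328513 to 73332178, plus strand), had 9.16, 9.11 and 9.16 for floxed control, 9.35, 9.27 and 9.18 for Cre control and 9.42, 9.50 and 9.35 for cKO. The Cre control was spread over the gap between the other groups. Against the floxed control Mrpl36 rose by 0.28 (SE 0.057, limma adjusted p = 0.0049), and against the Cre control its fold change was 0.15 (limma adjusted p = 0.11). Mrps25, a small subunit protein found only in mitochondria (chromosome 6, 92169525 to 92184033, minus strand), had 10.48, 10.54 and 10.45 for floxed control, 10.69, 10.68 and 10.51 for Cre control and 10.81, 10.68 and 10.72 for cKO. Its Cre control libraries reached into both other groups. It rose by 0.25 against the floxed control (SE 0.056, limma adjusted p = 0.0073), with 0.11 against the Cre control (limma adjusted p = 0.22). Mrpl28, of the large subunit (chromosome 17, 26123500 to 26126613, plus strand), had 10.30, 10.35 and 10.34, then 10.46, 10.40 and 10.38, then 10.54, 10.48 and 10.54 in floxed control, Cre control and cKO. Its 3 groups did not overlap, and it rose by 0.19 against the floxed control (SE 0.039, limma adjusted p = 0.0042), with 0.11 against the Cre control (limma adjusted p = 0.099).

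3 other small subunit genes were among the 5 of that subunit with the smallest adjusted p against the floxed control. Mrps9, which has bacterial homologs, rose by 0.17 (SE 0.049, limma adjusted p = 0.020). Mrps34, found only in mitochondria, rose by 0.15 (SE 0.040, limma adjusted p = 0.015), and Mrps21 by 0.16 (SE 0.048, limma adjusted p = 0.025). In all 3 genes every cKO library was above every floxed control library, but each call was lost in at least 1 other fit, with adjusted p of up to 0.098 for Mrps9, 0.11 for Mrps34 and 0.41 for Mrps21.

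**Figure D4:**
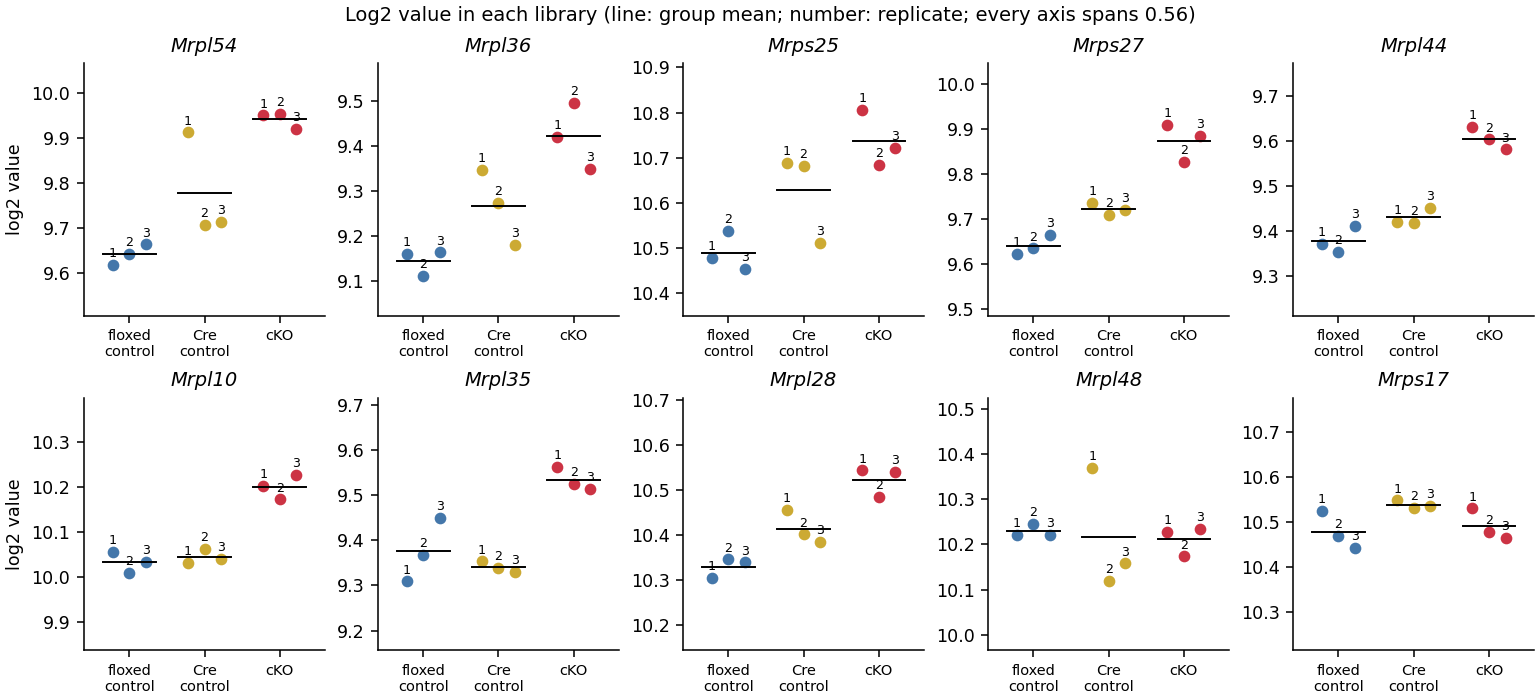
Log2 value (y axis, each spanning 0.56) in each library of the 3 genotypes (x axis) for 10 of the genes, where numbers give the replicate and lines the group means. The cKO lies above both controls in Mrps27, Mrpl44, Mrpl10 and Mrpl35, Cre control replicate 1 approaches the cKO in Mrpl54, and Mrpl48 and Mrps17 show no gap between floxed control and cKO.

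At the other end, 6 genes had the lowest fold changes of their subunit. Mrpl48, of the large subunit, had 10.22, 10.25 and 10.22 for floxed control, 10.37, 10.12 and 10.16 for Cre control and 10.23, 10.17 and 10.23 for cKO, so that Cre control replicate 1 was the highest of the 9 libraries. Mrps17, of the small subunit, had 10.52, 10.47 and 10.44 for floxed control, 10.55, 10.53 and 10.54 for Cre control and 10.53, 10.48 and 10.46 for cKO. It was the only gene of the 78 in which every cKO library lay below every Cre control library. The fold changes against the floxed control were -0.018 for Mrpl48 (SE 0.061), -0.0088 for Mrpl32 (SE 0.044), which the m-AAA protease of the inner membrane matures, 0.013 for Mrps17 (SE 0.039), 0.019 for Mrpl50 (SE 0.044), 0.021 for Mrps5 (SE 0.046) and 0.022 for Mrps10 (SE 0.053). None of these passed (limma adjusted p of 0.74 or more, with the sign of all but Mrps5 turning in at least 1 other fit).

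Genes with a known part in translation beyond the frame of the ribosome were followed by name. Mrpl12, a stalk protein that also binds the mitochondrial RNA polymerase, had means of 10.92 ± 0.019 for floxed control, 11.03 ± 0.12 for Cre control and 11.08 ± 0.020 in the cKO (SD, n = 3 each) and rose by 0.16 against the floxed control (limma adjusted p = 0.044). Mrps12, which lines the decoding center, rose by 0.15 (limma adjusted p = 0.047). Both calls were lost after correction for length and GC content, where the fold changes of Mrpl12 and Mrps12 were 0.079 and 0.051 (limma adjusted p of 0.27 and 0.40). Mrpl45, which anchors the ribosome at the inner membrane, had means of 9.93 ± 0.026, 10.06 ± 0.19 and 10.11 ± 0.026 in floxed control, Cre control and cKO (SD, n = 3 each). Its fold change of 0.18 did not pass against the floxed control (SE 0.079, limma adjusted p = 0.10), although every cKO library was above every floxed control library. Mrpl58, a peptidyl-tRNA hydrolase that is also built into the large subunit, had a fold change of 0.11 (limma adjusted p = 0.16), and Mrpl41 of 0.028 (limma adjusted p = 0.66).

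The 3 paralogs of bacterial S18 did not pass against the floxed control. Their fold changes were 0.076 for Mrps18a of the large subunit (SE 0.041, limma adjusted p = 0.17), 0.12 for Mrps18b of the small subunit (SE 0.048, limma adjusted p = 0.071) and 0.042 for Mrps18c of the small subunit (SE 0.074, limma adjusted p = 0.68). Mrps30, a large subunit protein despite its name, rose by 0.19 (SE 0.049, limma adjusted p = 0.014), and Mrps36 by 0.21 (SE 0.052, limma adjusted p = 0.011). After correction for length and GC content the fold change of Mrps36 was 0.10 (limma adjusted p = 0.062), and Mrps30 reached a limma adjusted p of 0.052 in another fit. Mrpl1 and Mrpl20, named for their level per length, had fold changes of 0.057 and 0.061 and did not pass (limma adjusted p of 0.61 and 0.46).

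The next comparison, of cKO with Cre control, held the Cre transgene equal. With all 9 libraries, 4 of the 78 genes rose (5.13%), against 4.87% of the genes tested. The share that rose was near the background. None fell by limma at an adjusted p under 0.05, where 4.85% of the genes tested fell. None fell at an unadjusted p under 0.05 either, against 13.9% of the genes tested. The 4 genes were Mrpl10, Mrpl35, Mrpl44 and Mrps27, and 16 of the 78 were higher at an unadjusted p under 0.05, where 15.4% of the genes tested were. The median fold change was 0.073 against 0.012 for the genes tested, 69 of the 78 were above 0, and in 22 genes (28.2%) every cKO library was above every Cre control library, against 17.8% of the genes tested. After correction for length and GC content 1 gene rose (1.28%, background 5.8%).

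This comparison turned on Cre control replicate 1. The median over the 78 genes of the deviation from each gene's own mean over the 9 libraries was -0.074, -0.061 and -0.060 for floxed control, 0.084, -0.053 and -0.044 for Cre control and 0.088, 0.054 and 0.071 for cKO, for replicates 1, 2 and 3. Replicate 1 of the Cre control was thus at the level of the cKO, and the other two libraries of its group were at that of the floxed control. Without it, 28 genes rose against the remaining Cre controls (35.9%), where 10.9% of the genes tested rose, and the median fold change was 0.11. Without either of the other two Cre controls no gene was called by limma, and 8 and 5 of the 78 were higher at an unadjusted p under 0.05 without replicates 2 and 3, where 13.9% and 12.1% of the genes tested were. Whether that library differs by handling, dissection or biology was not tested.

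**Figure D5:**
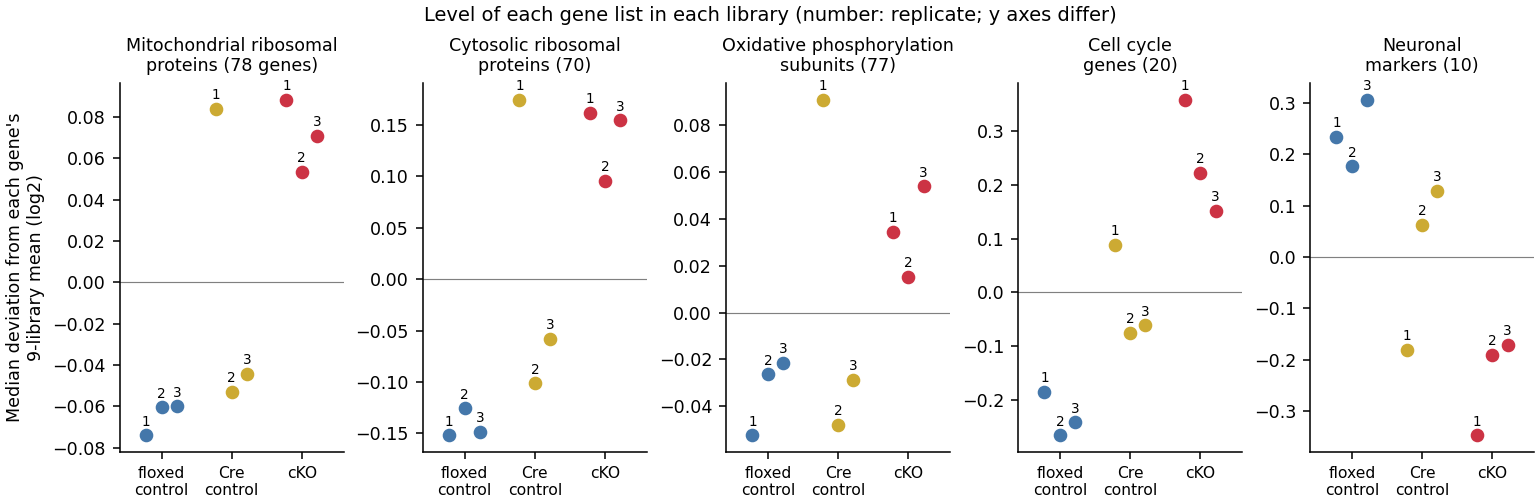
Median over a gene list of the log2 deviation from each gene's mean over the 9 libraries (y axis, which differs between panels), for each library of the 3 genotypes (x axis, numbers give the replicate). In the mitochondrial ribosomal protein genes Cre control replicate 1 is at 0.084, within the cKO range of 0.054 to 0.088, and it also lies apart from its group in the other 4 lists.

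Between Cre control and floxed control, which differ in Cre and in 1 conditional allele, no gene of the 78 was called by limma in either direction, where 0.0499% of the genes tested rose and 0.00713% fell. At an unadjusted p under 0.05, 6 of the 78 were higher and 0 lower, where 8.77% of the genes tested were higher and 8.69% lower. The median fold change was 0.060 (genes tested -0.0010), and it was 0.024 without Cre control replicate 1. In 18 genes (23.1%) every Cre control library was above every floxed control library, against 10.8% of the genes tested. The group means stood in the order floxed control, Cre control, cKO in 61 of the 78 genes (78.2%) and in 33.9% of the genes tested. The comparisons share libraries, so that this order is no independent result.

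Few genes passed in the other lists of mitochondrial translation, against the background of 19.5% that rose. None of 5 mitoribosome proteins with other names, among them Dap3 and Ptcd3, passed against the floxed control (median fold change 0.094), and all 5 had fold changes above 0. Of 24 genes for mitoribosome assembly and rRNA modification 3 rose and none fell (median 0.043): the pseudouridine synthase homolog Rpusd4 (0.21, limma adjusted p = 0.0067), the rRNA methyltransferase Tfb1m (0.16, limma adjusted p = 0.025) and Mettl15 (0.16, limma adjusted p = 0.025). Of 16 translation factors 2 rose and none fell (median 0.070), namely the elongation factors Tufm (0.20, limma adjusted p = 0.0038) and Tsfm (0.15, limma adjusted p = 0.029). Tufm was also higher against the Cre control (0.17, limma adjusted p = 0.030), as was Oxa1l, the insertase that receives the new proteins at the inner membrane (0.13, limma adjusted p = 0.048). Whether these lists differed from the mitoribosomal genes was not tested.

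Of 20 genes for mitochondrial aminoacyl-tRNA synthesis 3 rose and 1 fell against the floxed control (median 0.042). Of the genes tested 19.5% rose and 18.8% fell. Mars2, the methionine enzyme, fell by 0.25 (limma adjusted p = 0.0032). Among 10 genes for transcription and replication of mitochondrial DNA, Tfam, which packages that DNA, was the only gene called, with a rise of 0.19 (limma adjusted p = 0.0070). Among 10 regulators of mitochondrial genes, Nrf1, which encodes the factor whose motif was searched above, rose by 0.27 (limma adjusted p = 0.0034), and the coactivator gene Ppargc1a fell by 0.49 (limma adjusted p = 0.0056). Gabpa, for the DNA-binding subunit of GABP, had a fold change of 0.097 (limma adjusted p = 0.12). Against the Cre control none of these 3 regulators passed. The NRF1 letters were in 25.9% of the 27 mitoribosomal genes with a window that rose and in 21.4% of the 42 that did not pass, and the ETS letters in 33.3% and 40.5%.

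Cytosolic ribosomal proteins and oxidative phosphorylation subunits are the gene groups closest in kind. Of 70 cytosolic ribosomal protein genes 64 rose against the floxed control (91.4%), with a median fold change of 0.28. Of 77 nuclear oxidative phosphorylation genes 6 rose (7.79%), with a median of 0.065. The share of all genes tested was 19.5%. None fell in either list by limma. Against the Cre control the counts were 6 of 70 (8.57%, median 0.13) and 1 of 77 (1.3%, median 0.035), where 4.87% of the genes tested rose. The cytosolic list showed the same 1 library apart from its group, with median deviations of 0.17, -0.10 and -0.058 in the Cre control, 0.096 to 0.16 in the cKO and -0.15 to -0.13 in the floxed control.

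Marker RNA of several cell types moved with the same contrast. In bulk tissue a lower value can come from fewer cells of a type or from less RNA per cell, and these cannot be told apart here. Against the floxed control all 20 cell cycle genes rose (median 0.46) and all 10 neuronal markers fell (median -0.51). Of the genes tested 19.5% rose and 18.8% fell. Against the Cre control 11 of the 20 cell cycle genes rose and 3 of the 10 neuronal markers fell. Of the genes tested 4.87% rose and 4.85% fell in that comparison. Median deviations of the cell cycle genes were 0.088, -0.075 and -0.062 in the Cre control, and those of the neuronal markers -0.18, 0.063 and 0.13, so that replicate 1 was the nearest of its group to the cKO in these lists. The log2 summed level of the neuronal markers was 17.12 to 17.24 for floxed control, 16.77 to 17.07 for Cre control and 16.61 to 16.77 in the cKO, and that of the cell cycle genes 15.71 to 15.81, 15.89 to 16.04 and 16.12 to 16.34. Of 10 progenitor markers 5 rose (median 0.16), with a summed level of 16.51 to 16.58, 16.52 to 16.63 and 16.68 to 16.75.

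Among markers of cells from outside the neuroepithelium, 7 of 10 erythroid (median 0.78), 7 of 8 mesenchyme (0.71), 4 of 8 endothelial (0.25) and 1 of 8 microglia markers (0.18) rose against the floxed control. Of the genes tested 19.5% rose, so the microglia share (12.5%) was below the background. When compared with the Cre control 5 of 10 erythroid markers rose, and none of the 8 mesenchyme, 8 endothelial and 8 microglia markers was called by limma. The share of all genes tested that rose was then 4.87%. Single libraries differed within groups here too. Median deviations of the erythroid markers were -0.59, 0.13 and -0.32 for floxed control and 0.79, -0.018 and 0.90 for cKO, and those of the mesenchyme markers -0.43, 0.067 and -0.61 for floxed control and -0.22, 0.27 and 0.058 for Cre control. In the mesenchyme and endothelial markers Cre control replicate 1 was the library of its group farthest from the cKO, at -0.14 in the endothelial list against 0.12 and 0.054 in the other two. The log2 summed level was 17.22 to 17.99 for floxed control, 17.49 to 17.69 for Cre control and 17.87 to 18.82 in the cKO for the erythroid list, and 14.85 to 15.70, 15.18 to 15.91 and 15.94 to 16.00 for the mesenchyme list. For the endothelial list it was 12.60 to 12.96, 12.71 to 13.06 and 12.98 to 13.08, and for the microglia list 11.34 to 11.58, 11.52 to 11.59 and 11.57 to 11.71. None of the markers was at or below 0 in every library. Hoxa2 and Hoxb2, hindbrain genes, fell against the floxed control (median -0.87). Against the Cre control neither was called (median 0.046), and the median of Cre control minus floxed control was -0.92. The cKO and the Cre control were thus close, and the floxed control stood higher. The summed level of the 4 listed hindbrain genes was 7.56 to 8.20 for floxed control, 6.91 to 7.33 for Cre control and 7.05 to 7.13 in the cKO. Of the remaining lists, 1 of 6 midbrain markers fell against the floxed control, 1 of 3 neural crest glia markers rose and none of 2 forebrain markers was called. Of the genes tested 18.8% fell and 19.5% rose in that comparison. The part of these markers in the difference of the mitoribosomal genes was not tested.

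Many of these genes start close to a gene on the other strand. 33 of the 78 (42.3%) had a protein-coding gene on the other strand that started within 1000 bases head to head, against 14.9% of 13845 protein-coding genes tested. Mrpl46 and Mrps11 were the only 2 of the 78 that faced each other, with 412 bases between their starts. Of 29 such neighbors that were tested and are no members, 8 rose and 3 fell against the floxed control (median 0.062). Of all genes tested 19.5% rose and 18.8% fell. The distances that follow are between starts. Mrpl54 starts 26 bases from Apba3, which rose by 0.18 (limma adjusted p = 0.037). Mrps12 starts 172 bases from Sars2, the mitochondrial serine enzyme, which rose by 0.17 (limma adjusted p = 0.035). Mrpl36 starts 29 bases from Ndufs6, a complex I subunit with a fold change of 0.16 (limma adjusted p = 0.059), and overlaps it by 30 bases. Mrpl49 starts 59 bases from Fau, a cytosolic ribosomal protein gene that rose by 0.29 (limma adjusted p = 0.0052). Mrpl44 starts 125 bases from Wdfy1 and overlaps it by 126 bases. Wdfy1 fell by 0.40 (limma adjusted p = 0.0055) while Mrpl44 rose. These 5 pairs were chosen after their values were seen. In all, 23 of the 78 genes overlap a protein-coding gene of the other strand. 10 of these 23 rose against the floxed control, a share near that of all members (34 of 78, 43.6%). The sources used here do not say whether strand was used in counting, so reads in the shared bases cannot be told apart.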

How the data were processed

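Libraries were made with NEBNext Ultra RNA and poly-A selection. The authors deposited 1 table of log2 values for 9 libraries. The submitters' processing notes name FastQC 0.10.1, kallisto 0.46.1, DESeq2 and mm10, with no role, and the transformation is not given in the sources used here. The deposited log2 values look shrunk at low expression, which would make fold changes of low genes smaller, and hold no read depth, so no counting interval was given. Of 27360 rows, 5764 without a gene name were left out.

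Groups came from the sample titles. Genes with at least 1 cpm on linear values in at least 3 libraries were fitted with limma 3.58.1 (R 4.3.3), with a mean per genotype, all 9 libraries and eBayes with trend. Tests were two-sided, with Benjamini-Hochberg adjustment over all 14033 genes and a limit of 0.05. The study's limits of fold change and cpm guided the design. The fit was also run on simulated data with independent noise in each gene. Those data held no shift shared by the genes of a library and no trend with length. The run therefore says nothing on calls that depend on either. Positions, length and GC content came from GENCODE vM21 (GRCm38, the same build as mm10), and promoters from RefSeq. Members and lists were chosen with earlier results of these data known. The genes named with values were, per subunit, the 5 with the smallest adjusted p and the 3 with the lowest fold change against the floxed control, those that passed against the Cre control, 12 fixed by role, and the 4 extremes per length. Of other lists up to 4 genes were named by smallest adjusted p. Alternatives were other filters, scalings, variance models, libraries and limits, a replicate block, and a correction for length and GC content.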

Additional observations from a re-analysis of the deposited data

How the results depend on the processing

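Against the floxed control, 34 genes were called higher (43.6%), where 19.5% of the genes tested were. The count was 15 after correction for length and GC content, where 18.8% of the genes tested rose. It was 19 with libraries centred on their medians. With a fold change over 1.5 the count was 0, against 2.92% of the genes tested in either direction. It was 8 at an adjusted p under 0.01 and 10 to 51 when single libraries were left out. It was 23 after quantile normalization and 45 with only the 6 libraries compared. Against the Cre control 4 genes were called, where 4.87% of the genes tested rose. The count was 1 after correction for length and GC content, where 5.8% of the genes tested rose. It was 3 with centred libraries, and 0 with a fold change over 1.5 or at an adjusted p under 0.01. It was 0 with only the 6 libraries compared and 0 to 28 when single libraries were left out. The share of all genes also moved with the fit. The counts alone do not show whether the mitoribosomal genes or all genes shifted. The counts of 19, 23 and 45 are given here without the share of all genes tested. They therefore do not show how far the mitoribosomal genes stood from the background in those fits. Against the Cre control the same holds for centred libraries, for the 6 libraries compared and for an adjusted p under 0.01. The median against the floxed control moved from 0.13 to 0.068 after correction for length and GC content. The cause of these shifts was not tested.

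Among the 29 genes named with values, the fold changes against the floxed control that changed sign passed in no fit. With length and GC content these were Mrpl20 (-0.058), Mrpl32 (0.013), Mrpl41 (-0.081), Mrps10 (-0.071), Mrps17 (-0.084), Mrps18a (-0.029) and Mrps18c (-0.049). Mrps10 was at -0.0031 after quantile normalization and Mrps17 at -0.0033 with centred libraries. With single libraries left out, the values ran from -0.031 to 0.0087 in Mrpl32, -0.029 to 0.0015 in Mrpl48, -0.0036 to 0.040 in Mrpl50, -0.0082 to 0.043 in Mrps10 and -0.0071 to 0.035 in Mrps17.

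Same-numbered libraries of different genotypes deviated together in 5 of 9 pairs (correlation above 0.1, median 0.10). Of the pairs with different numbers 3 of 18 did (median -0.053). The labels do not say what the numbers stand for, so the main fit did not pair the samples. Whether same-numbered libraries share an origin was not tested. With a replicate block 30 genes were called against the floxed control, all among the 34, and 4 against the Cre control. The share of all genes tested is not given with these counts either.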
